A study of Mus musculus with 5 samples.

Results

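Gfi1 and Lsd1 occupancy was examined at 10 neuronal microtubule genes, Map2, Mapt, Map1a, Map1b, Dcx, Dclk1, Tubb3, Stmn1, Stmn2 and Stmn3, out of 21951 protein-coding genes annotated in GENCODE release M21. The genes were listed by name for the function of their products, with no threshold on a peak value. All peaks lying within each gene body and 10 kb on either side were read from 4 peak lists. The lists came from MG tumors, a mouse medulloblastoma model in which cerebellar neural stem cells (Prominin1+, lineage-negative, sorted from C57BL/6 pups of 5 to 7 days) carry retroviral Myc and Gfi1 and form tumors in the cerebellum of immunodeficient NSG hosts. Gfi1 was immunoprecipitated from tumor 39 (replicate 1) and tumor 41 (replicate 2), and Lsd1 from the same tumors, so that every library came from tissue with forced Myc and Gfi1 and there was no MG tumor lacking either. An input library from pooled MGB (Myc and Gfi1b) tumors belongs to the series and was not analysed here. The chromatin came from bulk frozen tumor, so a peak cannot be assigned to a cell type, and peak lists hold no expression values with which the labelled tissue could be checked against its markers.

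Microtubules are polymers of alpha- and beta-tubulin, and neurons keep them stable in axons and dendrites while making them dynamic during migration and outgrowth. Map2 and tau (Mapt) bind along the polymer in dendrites and axons respectively, Map1a and Map1b are large structural partners, doublecortin (Dcx) and its kinase relative Dclk1 bind microtubules in migrating neurons, Tubb3 is the neuronal beta-tubulin, and the stathmins (Stmn1, Stmn2, Stmn3) bind tubulin dimers and favour disassembly. Several of these genes serve as markers of neuronal differentiation in the cerebellum. Gfi1 is a zinc finger repressor that recruits Lsd1, a histone demethylase, together with CoREST.

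The lists held 36836 peaks (Gfi1, tumor 39), 25078 (Gfi1, tumor 41), 30367 (Lsd1, tumor 39) and 33213 (Lsd1, tumor 41), with median widths of 1443 to 1765 bp. Between 50.6% and 56.5% of the peaks lay within 1000 bp of an annotated transcription start, the distance counted as a peak at a start throughout. The score attached to each peak is given without a definition, so it was used only as a percentile, the share of peaks in the same list with the same or a lower score. Read counts per peak are not in the lists, so the precision of a single peak is unknown. Spread is given as the SD over the 2 tumors, which measures tumor and library together, and no test between groups was run.

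A peak lay at a start of 8 of the 10 genes in the Gfi1 library of tumor 39 (80%, exact binomial 95% interval 44.4% to 97.5%, beside 65% of all protein-coding genes). The counts were 5 of 10 for Gfi1 in tumor 41 (54.2% of all protein-coding genes), 7 of 10 for Lsd1 in tumor 39 (58.5%) and 7 of 10 for Lsd1 in tumor 41 (61.7%). The intervals cover counting error over genes only. In both tumors, 5 genes had a Gfi1 peak at a start (53.9% of all protein-coding genes) and 7 an Lsd1 peak (57.6%). The same 5 genes, Map2, Mapt, Map1a, Tubb3 and Stmn1, had a peak in all 4 libraries (50%, 95% interval 18.7% to 81.3%, beside 53.1% of all protein-coding genes). Dcx and Stmn2 had none in any library, a state shared by 33.7% of all protein-coding genes. In every library the share of all protein-coding genes lay inside the interval of the 10 members. With 10 genes the intervals are wide, and the genes were chosen by name, so this does not test whether the members differ.

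**Figure D1:**
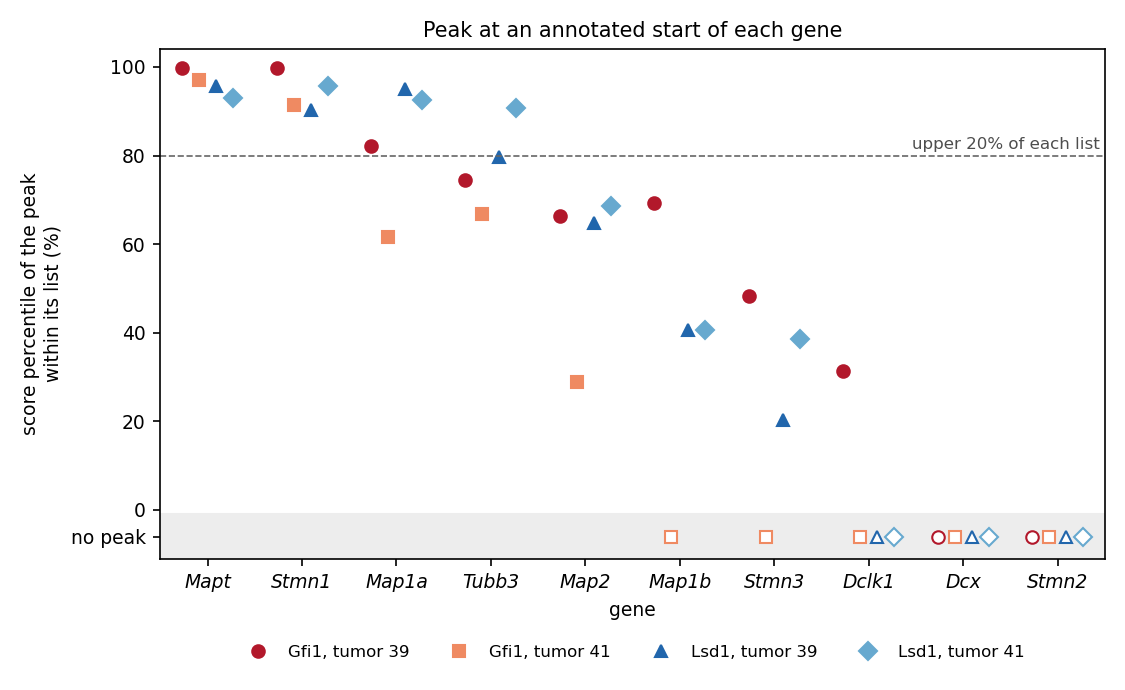
Score percentile of the peak at an annotated start (vertical axis, percent within its own list) for each gene (horizontal axis, ordered by mean), with 1 point per library and open symbols in the grey band where no peak was listed. Mapt and Stmn1 lie above the dashed line at the upper 20% in all 4 libraries, from 90.3 to 99.7, while Dcx and Stmn2 have open symbols only.

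By mean start percentile over the 4 libraries, the strongest of the 10 was Mapt, which encodes tau. Its start peak stood at percentile 99.7 and 97.0 for Gfi1 in tumors 39 and 41 (mean 98.4 ± 1.88, SD, n = 2) and at 95.7 and 93.1 for Lsd1 (94.4 ± 1.84). All 4 values lay within the upper 20% of their lists, and 95.4% of protein-coding genes had a lower mean over the 4 libraries when no peak counts as 0. The Gfi1 score of tumor 39 was 3100, a value that 805 peaks of that list share and that 105 exceed, so the rank of Mapt among those 805 is not resolved. The peak was also among the widest, at 5338 and 5201 bp for Gfi1 and 9334 bp for Lsd1 in tumor 39, where 98.9% of peaks were as narrow or narrower. In tumor 41 Lsd1 was called there as separate intervals, the one at the start being 3526 bp wide.

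Mapt also had the most sites beyond its start. Peaks of the 4 lists that share at least 1 bp were joined into sites, and the Mapt window of 120.7 kb (chromosome 11, gene at 104231390 to 104332090 on the plus strand, mm10) held 19 sites, 7 of them present in all 4 libraries. Besides the site at the first start and a site 26.3 kb into the gene, at the start of the antisense gene Gm11659, the other 5 lay away from every annotated start. Their middles fell in introns, at 23.3, 39.1, 45.1, 47.9 and 58.4 kb. The widest of these spanned 7004 bp and reached percentiles of 63.0 and 42.9 for Gfi1 and 74.0 and 78.3 for Lsd1. The site 47.9 kb in stood at 56.8 and 38.5 in the Gfi1 lists and at 78.5 and 73.4 in the Lsd1 lists. The site 58.4 kb in, which also covered an exon in every library, stood at 68.7 and 48.5 (Gfi1) and at 72.9 and 64.5 (Lsd1). At these 3 sites the Lsd1 percentile was above that of Gfi1 in both tumors, although percentiles of different lists are not on a common scale. The sites belong to 1 gene and are not replicates, and no share over other sites is given. Each value is the highest among the peaks joined at the site, whose number differs between libraries. The sites 23.3 and 45.1 kb in were weaker, with Gfi1 percentiles in tumor 41 of 13.2 and 7.76.

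Single sites of this kind were not rare, since 17.2% of protein-coding genes of 0.5 to 2 times the length of Mapt had at least 1. Genes with as many as Mapt were uncommon, the cutoff of 5 being the count of Mapt itself. At least 5 intragenic sites in all 4 libraries away from any start were found in 70 of 21951 protein-coding genes (0.319%), and in 37 of the 3995 genes (0.926%) of 0.5 to 2 times the length of Mapt. Of the remaining 12 sites in the window, 10 were present in a single library. Of the 2 late, noncoding internal starts of Mapt, that at 86.6 kb had weak peaks in 2 libraries and that at 90.6 kb had none. The highest percentiles there were 38.8 for Gfi1 and 4.68 for Lsd1, both in tumor 39 and at separate sites. The internal coding start at 51.0 kb had no peak.

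**Figure D2:**
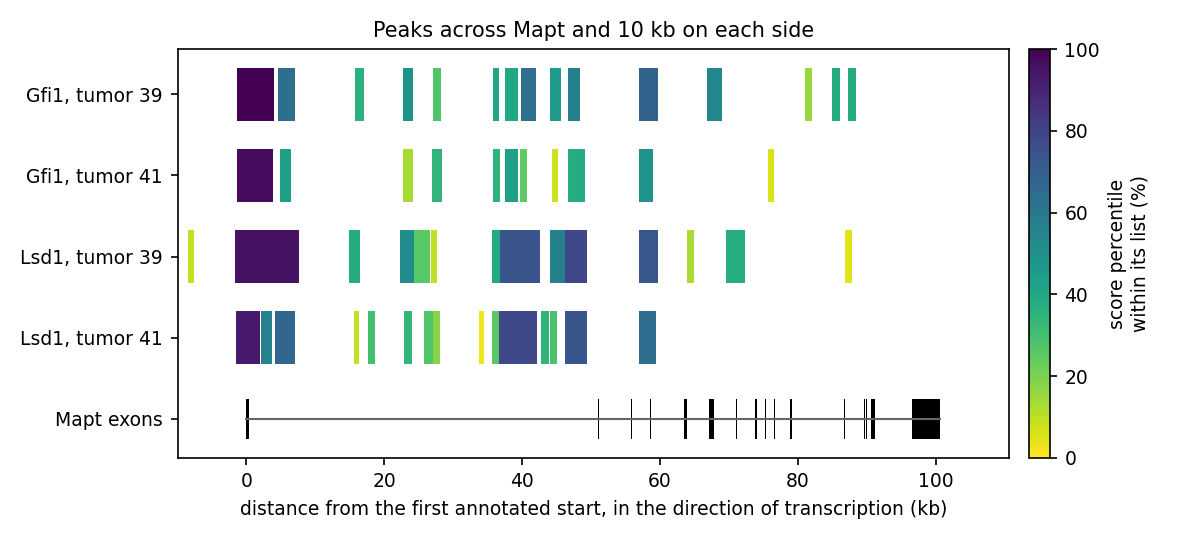
Peaks of the 4 libraries (rows) across Mapt and 10 kb on either side, by distance from the first annotated start in kb, coloured by score percentile within each list, with exons in black. The darkest blocks cover the start in every library, and further blocks line up between 20 and 60 kb, of which 5 sites away from any start occur in all 4 rows.

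The other structural partners were lower and differed from each other. Map1a, found mainly in mature neurons, had a start peak at percentile 82.1 and 61.6 for Gfi1 (71.9 ± 14.5, n = 2) and 94.98 and 92.5 for Lsd1 (93.7 ± 1.79). Percentiles of Gfi1 and Lsd1 lists are not on a common scale, so this distance is not read as a difference in occupancy. Map2 stood at 66.4 and 28.9 for Gfi1 (47.7 ± 26.5) and at 64.7 and 68.5 for Lsd1 (66.6 ± 2.69), so that the Gfi1 spread between tumors was larger than the distance between the factors. Map1b, prominent in growing axons, had no Gfi1 peak in tumor 41. Its Gfi1 percentile in tumor 39 was 69.3, and its Lsd1 percentiles were 40.7 in both tumors.

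The extended length of these genes carried little. Map2 spans 267 kb with 8 separate clusters of annotated starts, and only the cluster at the 5′ end had a peak within 1000 bp, in all 4 libraries. Its 5 further sites were intronic, none was in all 4 libraries, and their percentiles ranged from 5.44 to 48.8. Map1b had no site in its window of 115 kb other than the one at its first start, which also covers the start of the divergent noncoding gene Gm26559, and the 3 internal start clusters of Map1b were free of peaks. Map1a had 2 weak sites in Gfi1 of tumor 39 only (percentiles 9.48 and 10.3), at an internal start near that of the antisense gene Gm14978 and in an exon.

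The sequence just before the start is shown for 4 members that differ in occupancy, in lower case with CG dinucleotides in capitals, since the count of CG near starts accompanied occupancy over all genes. It is RefSeq sequence of build GRCm38.p6, read 5′ to 3′ on the gene's own strand, cut where the first annotated transcript begins. Of the 10 members, 7 had an entry among the promoter sequences used; Mapt, Stmn1 and Stmn2 had none. Map1a (chr2:121289352-121289599, plus strand) and Tubb3 (chr8:123411303-123411423, plus strand) had start peaks in all 4 libraries, Dclk1 (chr3:55242114-55242363, plus strand) in 1, and Dcx (chrX:143933312-143933469, minus strand) in none.
Map1a: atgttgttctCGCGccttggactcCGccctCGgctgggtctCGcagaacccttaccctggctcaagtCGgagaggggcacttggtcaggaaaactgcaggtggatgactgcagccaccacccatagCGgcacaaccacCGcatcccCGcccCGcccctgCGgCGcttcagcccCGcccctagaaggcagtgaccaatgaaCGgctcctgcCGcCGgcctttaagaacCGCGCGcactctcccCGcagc
Tubb3: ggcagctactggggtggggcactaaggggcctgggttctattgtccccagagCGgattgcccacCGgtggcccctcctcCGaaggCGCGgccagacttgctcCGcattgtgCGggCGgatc
Dclk1: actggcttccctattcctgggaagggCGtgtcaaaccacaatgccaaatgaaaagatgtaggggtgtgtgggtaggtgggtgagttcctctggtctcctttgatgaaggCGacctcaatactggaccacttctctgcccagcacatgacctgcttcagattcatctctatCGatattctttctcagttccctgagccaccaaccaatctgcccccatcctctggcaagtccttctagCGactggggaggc
Dcx: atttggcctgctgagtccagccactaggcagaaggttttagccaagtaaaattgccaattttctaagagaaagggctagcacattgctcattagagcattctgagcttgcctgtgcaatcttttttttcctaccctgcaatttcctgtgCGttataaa

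The stretch shown for Map1a has 20 CG in 248 bases (80.6 per kb) and that of Tubb3 has 8 in 121 (66.1 per kb), while Dclk1 has 4 in 250 (16.0 per kb) and Dcx 1 in 158 (6.33 per kb). Over all protein-coding genes, ordered by the highest CG count within 500 bp of any annotated start and divided into 5 equal parts, the share with a peak in all 4 libraries was 1.03%, 19.99%, 74.0%, 84.3% and 86.3% from the poorest part to the richest. Dcx, Stmn2 and Stmn3 belong to the second poorest part, Dclk1 and Tubb3 to the middle part, Map2, Map1a, Map1b and Stmn1 to the part above it, and Mapt to the richest. None of the 3 members of the second poorest part had a peak in all 4 libraries, although Stmn3, whose sequence is not printed, had one in 3. Its promoter window, 250 bases before to 50 after the start, held 6 CG. That of the first start of Dclk1, with a peak in 1 library, held 5. Of the 7 members of the richer parts, 5 had one, the exceptions being Dclk1 and Map1b. Whether CG content has a part in the rank of these genes was not tested.

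Letters of the Gfi1 core motif, AATC on either strand, occurred in 70.8% of 21263 protein-coding promoters (250 bases before to 50 after the start), so that their presence separates few genes. Map1a, Map2 and Stmn3 had none in that window, Tubb3 had 1, Map1b 2 and both Dclk1 entries 4. Dcx, without any peak, had 2 and 3 in its entries. The longer form AAATCAC, which contains AATC, was in 2.88% of promoters, and the Myc E-box CACGTG in 7.84%. Neither was in the promoter window of any of the 7 members searched. Over the whole, wider sites at the first starts, AAATCAC occurred in those of Mapt (2 matches), Stmn1 (1) and Map1b (1), and CACGTG in those of Stmn1 (3), Map1b (1) and Tubb3 (1). These sites span 2602 bp (Map1b) to 9334 bp (Mapt), so the promoter shares above are no background for them. No share over sites of like width is given, and whether the matches exceed it was not tested.

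The doublecortin family was the emptiest of the 4 groups. Dcx, an X-linked gene of 77.5 kb (chromosome X, 143855842 to 143933311, minus strand), had 0 sites in a window of 97.5 kb. On the same chromosome, 55.1% of 948 protein-coding genes lacked a start peak in every library. Dclk1, a gene of 297 kb, had a Gfi1 peak at its first start in tumor 39 only, at percentile 31.5. That interval began 26 bp before the start and ended 1012 bp after it, with 52.0 CG per kb, against 16.0 in the stretch printed above. The start cluster 219 kb downstream, from which 7 coding transcripts begin and which gives the short kinase forms, had no peak in any library, nor had the other 4 clusters. The 3 further Dclk1 sites were each in 1 library, at percentiles of 4.90 to 24.1.

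Tubb3 had a start peak at percentile 74.4 and 66.9 for Gfi1 (70.7 ± 5.30, n = 2) and at 79.6 and 90.7 for Lsd1 (85.1 ± 7.80). Its Gfi1 values were below the medians of protein-coding genes with a start peak (82.5 and 77.4). Its Lsd1 values were above them (79.0 and 81.0). Percentiles of the 2 factors come from different lists and are not on a common scale. The intervals were 2731 to 3827 bp wide and reached 1659 to 2403 bp before the start, into the neighbouring gene Mc1r (the melanocortin 1 receptor), with the start of the unclassified gene Gm38092 within 1000 bp. A separate site 4.15 kb upstream, at the start of Mc1r, was found for Lsd1 only, at percentiles 11.3 and 39.01.

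The highest ranked site of the Tubb3 window was not at its start. A site of 9402 bp (chr8:123425432-123434833) began 3416 bp after the end of Tubb3 and 1905 bp from the nearest annotated start of any gene. The site fell within the protein-coding genes Def8 and Gm20388, its middle in no exon of either. For Gfi1 its percentiles were 94.8 and 95.1, and for Lsd1 they were 96.8 and 94.97, with widths of 9258 to 9402 bp, so that the intervals of all 4 libraries nearly coincided. At least 98.9% of peaks in each list were as narrow or narrower. Repeat-masked sequence made up 21.1% of it. Whether this site acts on Tubb3, on Def8 or on another gene was not tested.

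The stathmins ranged from among the strongest to none. Stmn1, the widely expressed stathmin of dividing progenitors, had a start peak at percentile 99.7 and 91.4 for Gfi1 (95.5 ± 5.90, n = 2) and 90.3 and 95.8 for Lsd1 (93.1 ± 3.88), in intervals of 2635 to 3408 bp. Its Gfi1 score in tumor 39 was the same tied value as that of Mapt. The start region also holds the annotated miRNA gene Gm23634. A second site in all 4 libraries lay 9.82 kb after the start, beyond the end of the gene, with percentiles from 2.11 to 53.9.

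Stmn3, a neuron-enriched stathmin, had a start peak at percentile 48.3 for Gfi1 in tumor 39 and at 20.4 and 38.7 for Lsd1 (29.5 ± 12.9, n = 2), with none for Gfi1 in tumor 41. These intervals began 44 to 77 bp before the start and extended 922 to 1239 bp into the gene. A site 7.39 kb after the start, near the end of the gene, was in all 4 libraries at percentiles 55.5, 14.7, 37.4 and 66.5 in the order Gfi1 tumor 39, Gfi1 tumor 41, Lsd1 tumor 39 and Lsd1 tumor 41. Another site in all 4 libraries, 5.36 kb before the start, lies at the start of Rtel1, a telomere helicase gene, with percentiles of 58.8 to 72.7. Stmn2, the growth-cone stathmin, had a single peak in its 72.2 kb window, a Gfi1 interval of 676 bp in tumor 39, 1.93 kb after the start at percentile 14.3.

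**Figure D3:**
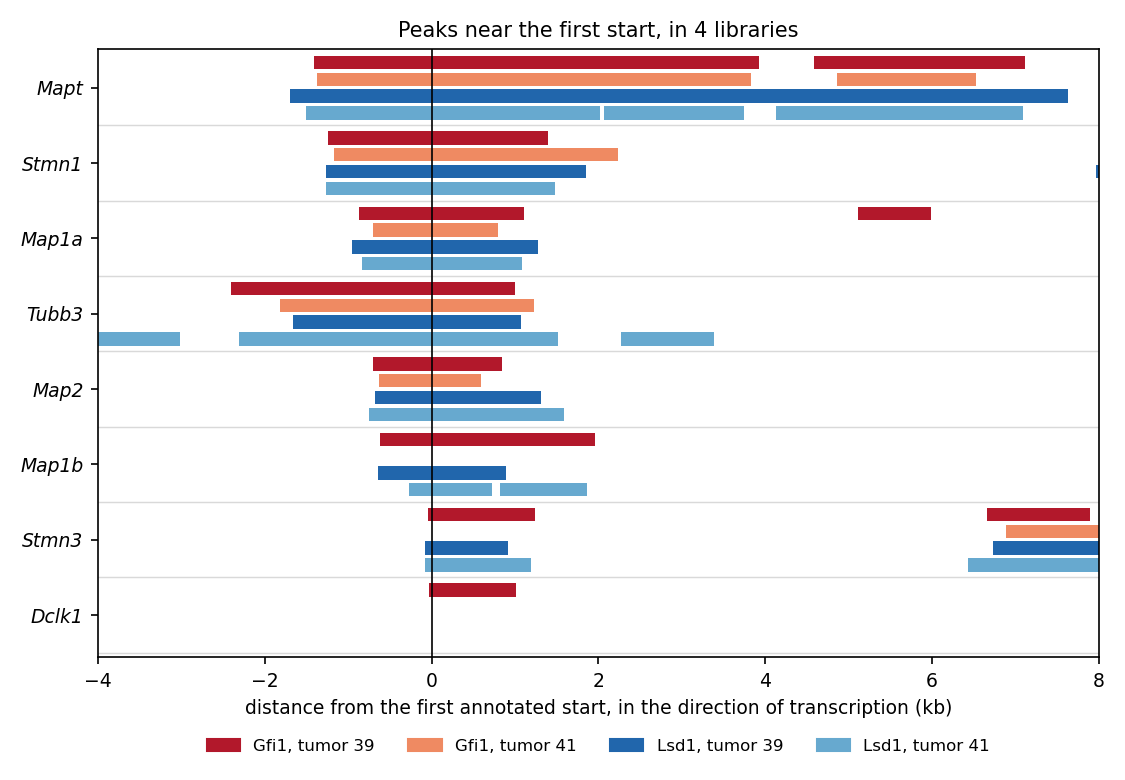
Extent of the peaks from 4 kb before to 8 kb after the first annotated start (horizontal axis, kb in the direction of transcription), with 4 bars per gene in the library colours, for the 8 genes with a start peak. Mapt has the widest bar at the start in 3 libraries (in the Lsd1 library of tumor 41 that of Tubb3, 3827 bp, is wider than the 3526 bp of Mapt), Tubb3 bars reach up to 2403 bp before the start, and those of Stmn3 and Dclk1 begin less than 80 bp before it.

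The start peaks of the libraries covered largely the same bases. For the 5 genes with Gfi1 start peaks in both tumors, the shared bases made up 73.7% to 97.4% of the union of the intervals (median 77.5%). For the 7 genes with Lsd1 peaks in both tumors, the share was 37.8% to 88.3% (median 78.5%), the lowest being Mapt. Between Gfi1 and Lsd1 of tumor 39 it was 57.2% to 88.8% over 7 genes, and between those of tumor 41 it was 52.2% to 79.4% over 5.

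A peak was called high-confidence where it ranked within the highest 20% in tumor 39 and had 50% or more of its bases inside equally high-ranking peaks of tumor 41. Mapt and Stmn1 had such a Gfi1 peak at a start (2 of 10, beside 22.9% of all protein-coding genes), and Map1a and Stmn1 such an Lsd1 peak (2 of 10, beside 25.9%). Mapt missed the Lsd1 set although its Lsd1 peaks were in the upper 20% of both lists, because the tumor 41 interval at the start covered 37.8% of the tumor 39 interval, while 100% of the tumor 41 interval lay within it. Upper 20% start peaks in all 4 libraries occurred at Mapt and Stmn1 (2 of 10, beside 19.9%). Map1a missed this in 1 library only, with a Gfi1 percentile of 61.6 in tumor 41. Tubb3 missed it in 3, with Gfi1 percentiles of 74.4 and 66.9 and an Lsd1 percentile of 79.6 in tumor 39.

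Disagreement between the tumors was mostly that of Gfi1. Map1b, Stmn3 and Dclk1 had a Gfi1 start peak in tumor 39 and none in tumor 41, as did 2425 of all 21951 protein-coding genes. The median Gfi1 percentile over the 10 members, with no peak as 0, was 67.9 in tumor 39 and 14.5 in tumor 41 (41.2 ± 37.8, n = 2), while the medians over all protein-coding genes were 67.6 and 31.3. For Lsd1 the medians were 52.7 and 54.6 (53.7 ± 1.33), beside 50.5 and 60.4 over all protein-coding genes. Without the Gfi1 library of tumor 41, which has the fewest peaks, the count of members with Gfi1 start peaks was 8 in place of 5. Of the Gfi1 libraries, the one with fewer peaks is the one for which the paper reports more mapped reads. The cause of the difference between the Gfi1 lists was not tested.

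Away from starts, agreement was lower. In all windows together, 1135 kb of sequence, there were 46 sites, of which 15 (32.6%) were in all 4 libraries and 24 in a single library. Of the 32 sites away from every annotated start, 8 (25.0%) were in all 4 libraries, 5 of them in Mapt and 1 each in or near Tubb3, Stmn1 and Stmn3. Over the genome 37.6% of 44474 sites and 18.4% of the 25179 sites away from starts were in all 4 libraries. Tubb3, Mapt, Stmn3 and Stmn1 had 11.8 to 16.3 sites per 100 kb of window, and Map1a had 7.28. Values for Map2, Stmn2, Dclk1 and Map1b were 0.869 to 2.09, and that for Dcx was 0.

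Further lists of microtubule genes, neuronal and general, gave the setting. Of 26 other neuronal microtubule genes, 17 had a start peak in all 4 libraries, and the median of the mean percentile over the libraries was 62.0, beside 47.4 for the 10 members and 51.7 for all protein-coding genes. The highest of these were Camsap2 (98.0), which caps minus ends, Ndel1 (94.7), a dynein regulator, Map1lc3a (93.6), Tuba4a (91.6) and Tuba1a (90.3), the main alpha-tubulin of young neurons. The lowest were Nav1 (27.8), Tubb4a (27.6), Dpysl5 (18.9), Dclk3 (6.51) and Stmn4, a neuronal stathmin with no peak in any library. A Gfi1 start peak in tumor 39 without one in tumor 41 was found for 8 of the 26.

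All 26 microtubule genes of most cell types had a start peak in all 4 libraries, with a median of 88.7. Their highest values were those of Tbcc (99.0), a tubulin folding cofactor, Clasp1 (98.9), Tubg1 (97.9), which nucleates microtubules, Tubb4b (97.3) and Tuba1b (97.2), and their lowest were Tbcd (77.6), Tbca (76.6), Clip1 (74.9), Katna1 (73.0) and Ttl (62.9), and the means of Mapt (96.4), Stmn1 (94.3), Map1a (82.8) and Tubb3 (77.9) fell within that range. High-confidence Gfi1 start peaks occurred in 14 of these genes and in 4 of the other neuronal ones, and high-confidence Lsd1 start peaks in 21 and 10. None of the general genes, 3 of the 26 other neuronal genes and 3 of the 10 members lay in the 2 CG-poorest parts of the genome-wide order. What CG content contributes to the difference between the lists was not tested.

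**Figure D4:**
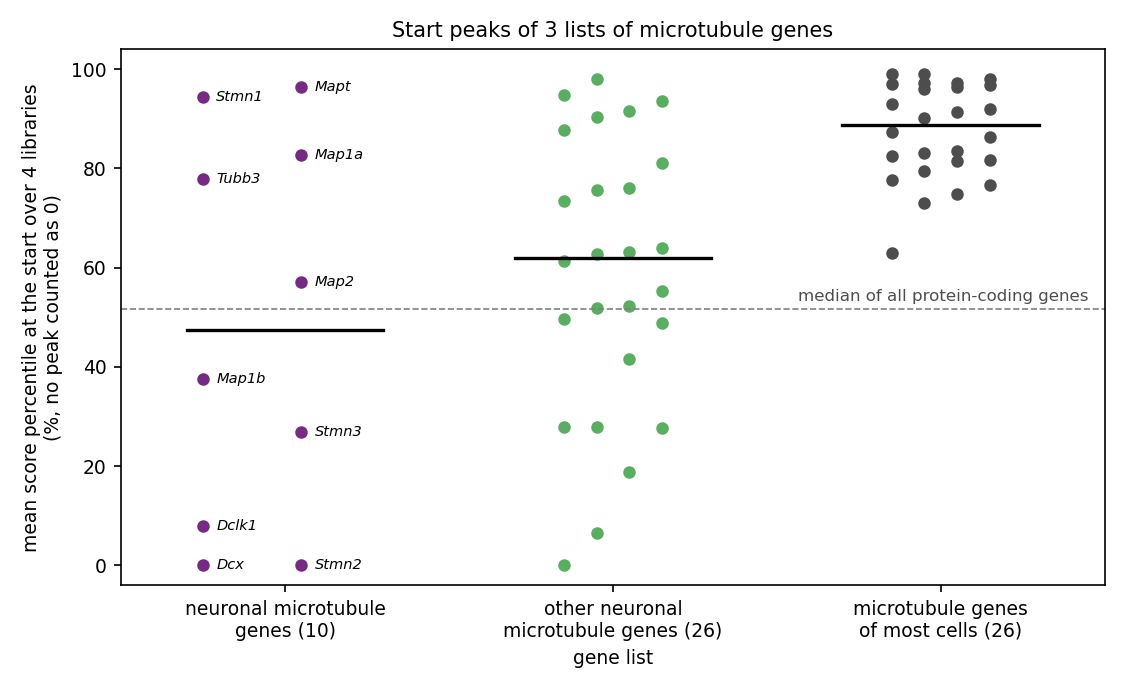
Mean score percentile at the start over the 4 libraries (vertical axis, percent, no peak counted as 0) for each gene of 3 lists (horizontal axis), with 1 point per gene, black bars at the list medians of 47.4, 62.0 and 88.7 and a dashed line at the median of all protein-coding genes. The 10 members spread from 0 to 96.4, while the genes of most cell types all lie above 60.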

How the data were processed

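Per the labels and the study's methods, the authors aligned reads to mm10 with BWA 0.6.2, merged files and removed duplicates with Picard, and ran MACS with default settings to call peaks per library over input chromatin. The deposited lists hold peak positions and a score of at least 50, whose definition is not given in the sources used here. The lists carry no read depth. The paper's high-confidence sets used enrichment, for which the score percentile stood in here. Gene starts came from GENCODE M21, made for GRCm38 (mm10), and the authors' own annotation was release M9. Overlaps, percentiles and exact binomial intervals were computed with pysam 0.24.0, scipy 1.17.1 and numpy 2.4.6 (Python 3.11.15) and plotted with matplotlib 3.10.9. Only the finding of a peak at a start and the highest percentile were checked on simulated peaks. Positions are 1-based. Same-numbered libraries come from the same tumor.

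All 10 members were named, with coding neighbours whose start lies within 1000 bp of a peak in a window, and the 5 highest and 5 lowest genes of each further list by mean percentile. The members and lists were chosen with earlier results of these data known. Alternatives were the distance to a start, the starts counted, the score cutoff, the flank, the joining of peaks and leaving out each library. RE1 matches with 1 differing letter were added after seeing the data. The input was not analysed here.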

Additional observations from a re-analysis of the deposited data

How the results depend on the processing

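No paired analysis was possible because the results come from no test, and values of the same tumor were only set side by side. Leaving out each library in turn gave 5 to 8 members with Gfi1 start peaks in all remaining Gfi1 libraries, the 8 without Gfi1 replicate 2 (tumor 41). At the upper 40% of the score, 4 members had peaks of both factors in both tumors in place of 2. With a flank of 50 kb there were 73 sites in place of 46. With the upper 50% of each list, 11.1% of sites away from starts were in all 4 libraries. The share of protein-coding genes with a start peak in all 4 libraries was 54.2% at 2500 bp, 52.1% with starts of coding transcripts, 49.7% with outermost starts and 44.2% with the upper 50% of each list, and 53.2% to 57.3% without each library in turn. The causes of these differences were not tested, except that fewer libraries or peaks change the count by construction. Among single genes, Stmn2 gained its Gfi1 peak of tumor 39 at 2500 bp, and with the upper 50% of each list Dclk1 and Stmn3 had no start peak, Map1b had 1 and Map2 lost its Gfi1 peak of tumor 41, so that 4 members in place of 5 had a peak in all 4 libraries. The median Gfi1 percentile of the members was 14.5 without tumor 39 and 67.9 without tumor 41. Depth per peak is not in the lists, so a missing peak shows that none was called, not that the protein was absent.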

Other observations

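The RE1 element is the binding sequence of REST, a repressor of neuronal genes that also recruits CoREST and Lsd1. Its letters, CAGCACC and GGACAG with 2 bases between them, were searched on both strands of GRCm38. The genome held 620 exact matches. Away from annotated starts there were 511, of which 18.8% and 17.4% lay in Lsd1 peaks of tumors 39 and 41 and 7.44% and 5.28% in Gfi1 peaks. Of the 109 within 1000 bp of a start, 60.6% and 63.3% lay in Lsd1 peaks and 53.2% and 33.0% in Gfi1 peaks. With 1 letter allowed to differ, the 5876 matches away from starts lay in Lsd1 peaks at 5.79% and 5.58% and in Gfi1 peaks at 4.31% and 3.03%.

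Among the microtubule genes, 3 exact matches lay in the windows, in Dcx, Tubb3 and Stmn2. The Dcx match (chrX:143904877-143904891, 28.4 kb after the start, in no peak) and the Tubb3 match (chr8:123414458-123414472, 3.04 kb after the start, in the Lsd1 peak of tumor 41 at percentile 35.0) are shown with the matched letters in capitals.
Dcx: CAGCACCatGGACAG
Tubb3: CAGCACCtcGGACAG

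The Stmn2 match, 1.12 kb before its first start, lay in no peak of either factor. With 1 letter allowed to differ, 2 further matches appeared, in Stmn2 (44.9 kb after the start, in no peak) and in Stmn3, 0.288 kb after the start and inside the start peaks of 3 libraries. Of the 745 such matches within 1000 bp of a start, 22.8% to 33.6% lay in peaks of each library. No match of either kind lay in the windows of Map2, Mapt, Map1a, Map1b, Dclk1 or Stmn1. A match is a description of letters, and binding of REST was not measured.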
